A study of Homo sapiens with 18 samples.

Results

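The genes described here are 8 of the 16575 genes measured: the receptors EGFR, ERBB2 and ERBB3 and the ligands AREG, EREG, HBEGF, TGFA and BTC. They were chosen by name, each being the row of the expression table whose Ensembl identifier maps to that symbol, and each was found once. ERBB receptors are membrane tyrosine kinases that pair up when a ligand of the EGF family binds, and pass the signal on to the RAS-ERK and PI3K-AKT cascades. EGFR binds AREG (amphiregulin), EREG (epiregulin), HBEGF, TGFA and BTC (betacellulin), ERBB3 has hardly any kinase activity of its own and binds neuregulins, and ERBB2 has no known ligand and acts as the preferred partner of the others. The ligands are made as membrane-bound precursors that proteases of the ADAM family release, and several of them are themselves switched on by ERK signalling. In urothelium EGFR and its ligands are linked to regrowth after injury, ERBB2 is amplified in a share of bladder tumours, and ERBB2 and ERBB3 are long-known targets of AP-2 transcription factors.

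The libraries were CAGE-seq libraries, in which reads start at the capped 5′ end of a transcript, so that 1 transcript gives 1 tag whatever its length. Bladder carcinoma cells of 3 lines (RT-112, CAL-29, HT-1376) were used, with 6 variants of each and 1 library per variant and line, 18 in all. Every variant, the control included, had been through 2 rounds of lentiviral transduction with antibiotic selection after each: the first with a WWOX vector (pLenti-GIII-CMV-GFP-2A-Puro, puromycin) or a blank virus, the second with an AP-2α or AP-2γ vector (pLKO-Neo-CMV, G418) or a blank virus. KK carried both blanks, KA blank then AP-2α, KC blank then AP-2γ, WK WWOX then blank, WA WWOX then AP-2α, and WC WWOX then AP-2γ. WWOX is a tumour suppressor with domains that bind other proteins, AP-2 factors among them. Both transgenes were driven by the CMV promoter, and each variant of a line was 1 selected culture, so a p-value between variants measures the spread among single cultures. RT-112 was grown in RPMI-1640 and the other lines in DMEM, with high glucose and more serum for HT-1376, so line and medium cannot be told apart. In a culture, fewer expressing cells and less RNA per cell cannot be told apart.

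Between 13357102 and 17958572 reads per library fell on genes, and 1 read was worth 0.0526 to 0.0709 CPM, the read count scaled to the total of its library. The library labelled CAL-29 KC had a median correlation (log2 scale) of 0.940 with the HT-1376 libraries and 0.741 with the other CAL-29 libraries, so its values are given apart and it entered no comparison of lines. WWOX was higher in 3 of 8 WWOX variants than in the matched variant without it (ratios 0.713 to 2.43): it had 18.45 to 22.3 CPM with and 23.5 to 26.0 CPM without WWOX in RT-112, 18.6 to 23.1 CPM with and 16.95 to 24.7 CPM without it in HT-1376, and in CAL-29 155 (WK), 69.3 (WA) and 62.4 CPM (WC) with it against 63.7 (KK) and 51.3 CPM (KA) without it. TFAP2A, which encodes AP-2α, was higher in 5 of 6 AP-2α variants than in the matched variant without it (ratios 0.909 to 2.60), and TFAP2C, which encodes AP-2γ, was higher in 5 of 5 AP-2γ variants (ratios 1.35 to 4.55). TFAP2C was also at 180 CPM in RT-112 WA, which was labelled AP-2α, against 56.2 CPM in RT-112 WK. A transcript of the vector starts in vector sequence, so these levels check a label only as far as its reads reached the gene. The epithelial markers EPCAM, KRT8, KRT18, KRT19 and CDH1 were present in all 18 libraries, and of 6 markers of other cell types COL1A1 and COL1A2 were measured.

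AREG, EREG and BTC lie on chromosome 4, with EREG at 4:74365145-74388749 and AREG at 4:74445136-74455005 on the plus strand (starts 80.0 kb apart) and BTC at 4:74744759-74794523 on the minus strand (GRCh38, GENCODE). EGFR is at 7:55019017-55211628, ERBB2 at 17:39687914-39730426, ERBB3 at 12:56076799-56103505, HBEGF at 5:140332843-140346603 and TGFA at 2:70447284-70554193. RefSeq promoters (GRCh38.p14) were found for 7 of the 8 genes. AREG and EREG were the members that differed most from RT-112 in both other lines, in the fit of lines given below. For this reason, and because AP-2 was a factor transduced, the 250 bases before the start of AREG (chr4:74444886-74445135), EREG (chr4:74364895-74365144) and EGFR (chr7:55018767-55019016) are printed, all on the plus strand, with matches to 3 motifs in capitals. These were TATAAA, the core of a TATA box, and the AP-2 palindrome, GCC followed by GGC with either 3 or 4 bases of any kind between them, each searched on both strands.

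AREG: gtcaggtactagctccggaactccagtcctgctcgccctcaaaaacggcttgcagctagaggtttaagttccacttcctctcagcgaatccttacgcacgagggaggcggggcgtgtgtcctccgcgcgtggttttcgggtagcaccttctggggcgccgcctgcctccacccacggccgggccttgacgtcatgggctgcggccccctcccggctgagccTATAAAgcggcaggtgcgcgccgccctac

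EREG: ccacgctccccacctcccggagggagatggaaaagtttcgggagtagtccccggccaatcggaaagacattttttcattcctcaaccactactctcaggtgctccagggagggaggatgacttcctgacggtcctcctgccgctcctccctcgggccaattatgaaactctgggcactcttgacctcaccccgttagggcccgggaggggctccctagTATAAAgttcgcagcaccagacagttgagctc

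EGFR: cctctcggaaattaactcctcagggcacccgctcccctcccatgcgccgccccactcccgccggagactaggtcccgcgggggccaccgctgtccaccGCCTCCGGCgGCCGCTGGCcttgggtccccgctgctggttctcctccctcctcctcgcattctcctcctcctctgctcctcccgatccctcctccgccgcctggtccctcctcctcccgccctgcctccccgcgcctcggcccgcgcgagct

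Counting backward from -1 at the last base before the start, AREG had TATAAA at -29 to -24 and EREG had it at -32 to -27, both on the strand of the gene. TATAAA starting in the stretch from -40 to -20 on that strand was found in 2.3% of 35116 promoters, and TATAAA anywhere in the 250 bases, on either strand, in 10.7%. Neither ligand had an AP-2 motif in this window. EGFR had the AP-2 palindrome with a gap of 3 at -152 to -144 and at -142 to -134, and ERBB2 had the one with a gap of 4 at -96 to -87, which is shown here with the bases around it (chr17:39687988-39688017, plus strand; this stretch lies inside the span of the annotated gene).

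ERBB2: gaccaaccgcGCCGCCAGGCcggccatcct

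Of all promoters, 19.8% held the palindrome with a gap of 3 and 18.6% the one with a gap of 4. A TGFA promoter had a match to each form, a second annotated EGFR promoter had TATAAA, and HBEGF and BTC had none of the 3 motifs.

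The level of the receptors set the lines apart first. EGFR stood at 38.9 (KK), 30.8 (KA), 47.6 (KC), 48.85 (WK), 39.2 (WA) and 48.9 CPM (WC) in RT-112. In the same order it stood at 146, 161, 109, 64.3, 84.6 and 79.8 CPM in HT-1376, and in CAL-29 at 211 (KK), 123 (KA), 124 (WK), 280.2 (WA) and 109 CPM (WC). Every RT-112 library lay below every library of the other lines, while HT-1376 and CAL-29 overlapped. ERBB2 had the opposite order: 177, 178, 223, 174, 192 and 200.3 CPM in RT-112, 99.7, 90.7, 99.9, 61.8, 49.9 and 81.0 CPM in HT-1376, and 82.0, 84.9, 169, 122 and 77.4 CPM in CAL-29. Here every RT-112 library lay above all libraries of HT-1376 and CAL-29. ERBB3 was the least expressed receptor and did not separate the lines, with 15.1 to 22.7 CPM in RT-112, 9.79 to 31.6 CPM in CAL-29 and 11.1 to 29.7 CPM in HT-1376.

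**Figure D1:**
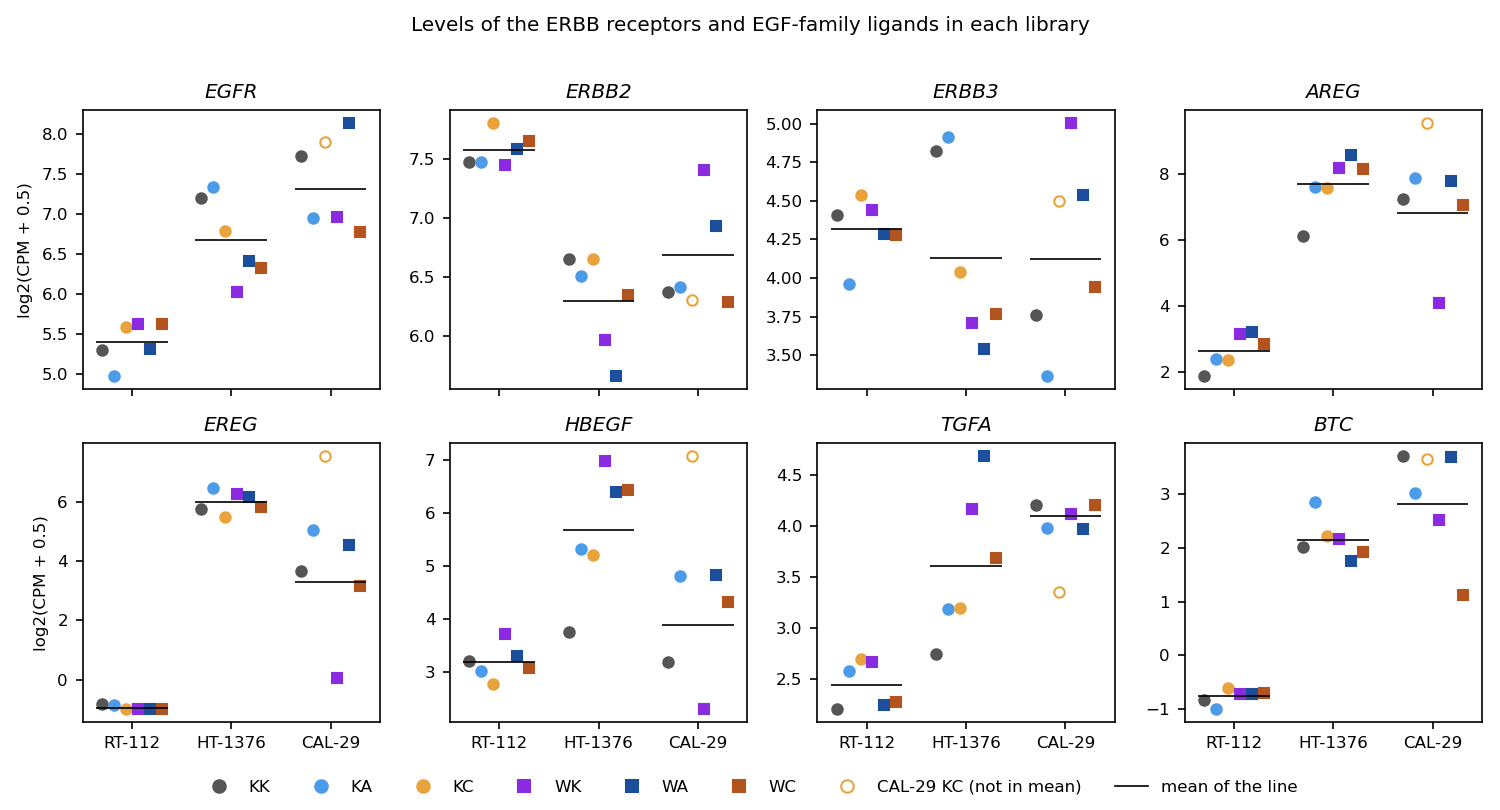
Level of each gene (vertical axis, log2 of CPM + 0.5, its own scale in each panel) in each library, by cell line (horizontal axis). Circles are variants without and squares with WWOX transduction, colours mark the 6 variants, the open circle is CAL-29 KC and bars are line means without it. RT-112 is lowest for EGFR, AREG, EREG, TGFA and BTC and highest for ERBB2, and CAL-29 WK is lowest of its line for AREG, EREG and HBEGF.

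Of the ligands, AREG, EREG and BTC differed from RT-112 more than any receptor did, while TGFA differed less than EGFR. AREG, a low-affinity EGFR ligand, had 3.16, 4.74, 4.65, 8.39, 8.83 and 6.69 CPM in RT-112, 68.3, 195, 190.1, 288, 381 and 280.4 CPM in HT-1376, and 150.1, 233, 16.6, 222 and 132 CPM in CAL-29 KK, KA, WK, WA and WC. No RT-112 library reached the lowest library of another line. EREG, which binds EGFR and ERBB4, was represented by 1 read each in RT-112 KK and KA and by none in the other 4 RT-112 libraries, where a count of 0 allows up to 0.158 to 0.213 CPM, the limit of 3 reads across all libraries. In HT-1376 it had 53.8, 87.55, 44.25, 77.0, 71.4 and 56.75 CPM, and in CAL-29 12.3, 32.7, 0.55, 22.7 and 8.49 CPM. EREG was thus the one ligand for which the 3 lines did not overlap at all.

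HBEGF, which also serves as the diphtheria toxin receptor, had 6.31 to 12.7 CPM in RT-112, 4.42 to 28.0 CPM in CAL-29 and 13.0 to 125 CPM in HT-1376. TGFA, the ligand long known from transformed cells, ranged from 4.10 to 5.99 CPM in RT-112 and from 6.18 to 25.2 CPM in HT-1376. In CAL-29 its 5 libraries lay close together, at 15.2 to 17.9 CPM. BTC had at most 0.16 CPM in RT-112, which is 3 reads, 1.69 to 12.6 CPM in CAL-29 and 2.88 to 6.70 CPM in HT-1376. The 5 ligands summed to 16.1 to 27.0 CPM in RT-112, 43.6 to 316 CPM in CAL-29 and 145 to 564 CPM in HT-1376, while the 3 receptors summed to 224 to 293, 201 to 425 and 139 to 282 CPM. In 4 CAL-29 libraries AREG made up 73.5% to 74.5% of the ligand sum, against 38.0% in CAL-29 WK and 47.2% to 67.6% in the HT-1376 libraries.

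The lines were compared in a model with line and variant over 17 libraries (limma on log2(CPM + 0.5), adjusted over 12991 genes). Libraries of a line are transduced variants of that line, so these p-values measure the spread among variants of these 3 lines. HT-1376 against RT-112 gave 61.8% of all genes called, 42.6% higher and 19.2% lower. Of the 8 genes 7 were called, 6 of them higher in HT-1376. EREG differed by 6.95 ± 0.52 (log2 fold change ± SE; limma adjusted p = 8.08e-08) and AREG by 5.05 ± 0.50 (limma adjusted p = 1.44e-06), and BTC, HBEGF, EGFR and TGFA by 2.92, 2.50, 1.27 and 1.16. ERBB2 was lower in HT-1376, at -1.28 ± 0.22 (limma adjusted p = 0.000192), and ERBB3 differed by -0.19 ± 0.31 (limma adjusted p = 0.616). The values of EREG and BTC, which RT-112 hardly expressed, depended on the pseudocount and ran from 5.02 to 11.44 and from 1.52 to 5.09 over the 14 alternatives.

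CAL-29 against RT-112 gave 71.6% of all genes called, 56.2% higher and 15.3% lower, and 6 of the 8 genes. BTC (3.60 ± 0.37), EREG (4.19 ± 0.56), AREG (4.13 ± 0.54), EGFR (1.93 ± 0.28) and TGFA (1.63 ± 0.28) were higher in CAL-29, with limma adjusted p from 2.08e-06 to 0.000166. ERBB2 was lower (-0.83 ± 0.23, limma adjusted p = 0.00559). HBEGF, at 0.62 ± 0.49, missed the threshold (limma adjusted p = 0.274), and with CAL-29 WK and its counterparts of the other lines left out it was 1.15 and passed it (limma adjusted p = 0.0169). ERBB3 stood at -0.18 ± 0.33 (limma adjusted p = 0.639).

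CAL-29 against HT-1376 gave 61% of all genes called, 43.4% higher and 17.6% lower, but 2 of the 8 genes, both ligands and both lower in CAL-29. EREG differed by -2.75 ± 0.56 (limma adjusted p = 0.000883) and HBEGF by -1.88 ± 0.49 (limma adjusted p = 0.00491). With CAL-29 KC included HBEGF was at -1.26 and no longer passed (limma adjusted p = 0.0954). EGFR (0.66), ERBB2 (0.44), ERBB3 (0.00), AREG (-0.93), TGFA (0.47) and BTC (0.68) did not pass.

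These values carry a shift common to most genes, since the median of all genes was 0.43 for HT-1376 and 0.84 for CAL-29 against RT-112 and 0.47 for CAL-29 against HT-1376 in CPM as deposited. With TMM scaling the medians were 0.09, 0.15 and 0.10, and the calls split into 4022 higher and 3641 lower, 4926 and 4084, and 3920 and 3478, in place of 5530 and 2498, 7306 and 1992, and 5642 and 2284. Under TMM, AREG, EREG, BTC, TGFA and EGFR were still called higher and ERBB2 lower in both lines than in RT-112 (ERBB2 -1.64 and -1.59). ERBB3 was called lower in CAL-29 than in RT-112 under TMM (-0.92, limma adjusted p = 0.0142) and also by limma-voom, edgeR and DESeq2, and HBEGF in CAL-29 changed sign to -0.10 without passing.

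**Figure D2:**
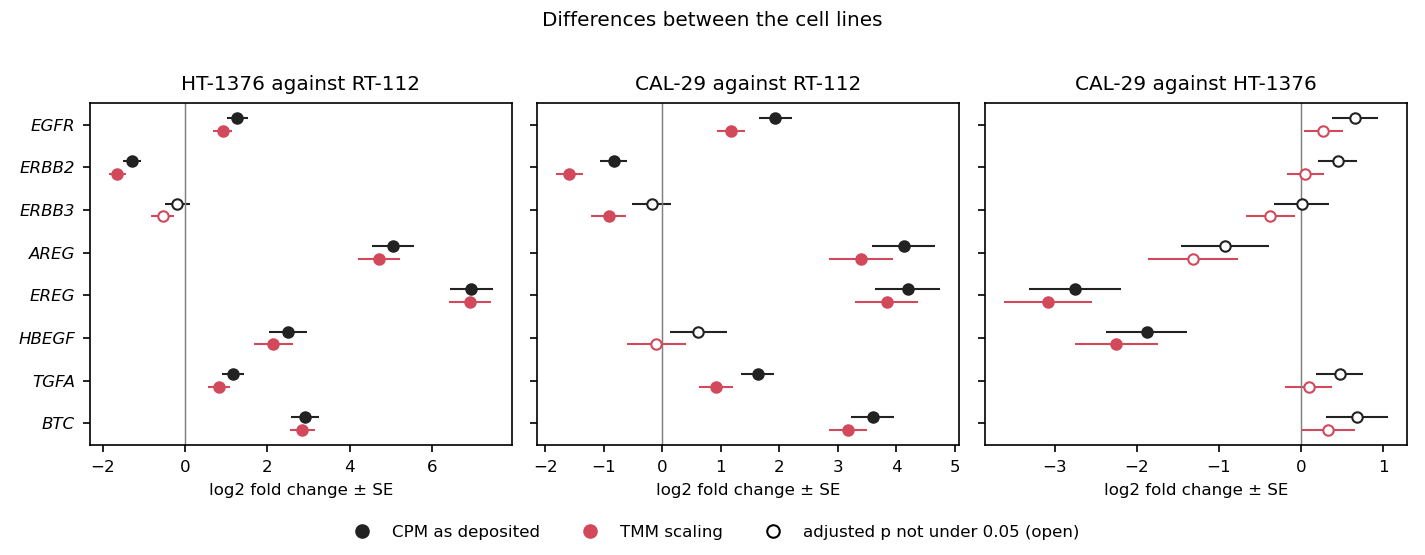
Log2 fold change ± SE (horizontal axis) of each gene between the lines, in CPM as deposited (black) and with TMM scaling (red), from the limma fit over 17 libraries. Filled points passed an adjusted p of 0.05. AREG and EREG are highest against RT-112 in both lines, ERBB2 is left of 0 in both, and EREG and HBEGF are left of 0 between CAL-29 and HT-1376.

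The other genes of the family showed different ligands in different lines. EPGN (epigen), which neighbours EREG on chromosome 4, had at most 0.27 CPM in RT-112, 1.18 to 6.11 CPM in CAL-29 and 6.97 to 37.6 CPM in HT-1376. NRG1 (neuregulin 1, a ligand of ERBB3 and ERBB4) was highest in CAL-29, with 28.0, 24.1, 4.25, 7.15 and 23.3 CPM, against at most 3.27 CPM in HT-1376 and 0.38 CPM in RT-112. NRG2 had 2.42 to 16.8 CPM in RT-112 and at most 0.53 CPM in the 2 other lines, and NRG4, a ligand of ERBB4, had 3.60 to 11.0 CPM in CAL-29 and at most 0.26 CPM in HT-1376. Relative to RT-112, EPGN differed by 4.81 in HT-1376 and 2.50 in CAL-29, NRG2 by -3.22 and -3.27, and NRG1 by 4.25 in CAL-29, all called. NRG4 in CAL-29 against RT-112 was called at 1.09 but not under TMM (0.41). ERBB4, EGF and NRG3 were not analysed here.

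Of the shedding genes, ADAM17, the main protease for AREG, HBEGF and TGFA, was higher in both lines than in RT-112 (1.36 and 2.92) and higher in CAL-29 than in HT-1376 (1.56). ADAM10, which acts on BTC, was called in CAL-29 (1.24 against RT-112), where TMM left it at 0.49 without a call. Against HT-1376 it was also higher in CAL-29 (1.265), and there it was still called under TMM (0.875). The iRhom genes RHBDF1 and RHBDF2, partners of ADAM17, had 18.3 to 43.2 CPM and 17.9 to 43.1 CPM in the 17 libraries. RHBDF2 was lower in HT-1376 than in RT-112 (-0.51), and RHBDF1 passed as 0.47 in CAL-29 against RT-112 but was -0.27 under TMM. Of 26 adaptors and transducers, 25 were tested, and 13 were called in HT-1376 against RT-112 (9 higher, 4 lower) and 21 in CAL-29 against RT-112 (15 higher, 6 lower). Over all genes 61.8% (42.6% higher, 19.2% lower) and 71.6% (56.2% higher, 15.3% lower) were called in these comparisons. The counts of this list and of those that follow were made in CPM as deposited, with its shift common to most genes. NRAS rose in both (2.64 and 3.96) as did PIK3R3 (2.34 and 2.89), AKT2 and AKT1 were lower in HT-1376 (-1.01 and -0.90), and SHC1 was lower in CAL-29 (-1.38). Of 17 negative regulators, 9 were called in HT-1376 against RT-112 (7 higher) and 13 in CAL-29 against RT-112 (9 higher), with the phosphatase gene DUSP4 up by 2.59 in HT-1376, LRIG3 up by 3.04 in CAL-29, and the ubiquitin ligase CBLC at -2.84 in HT-1376. Of 10 ERK target genes, 5 were called in each line against RT-112: EGR1 was higher in both (3.14 and 5.42), ETV4 lower in both (-3.56 and -3.67), and CCND1, which encodes cyclin D1, was higher in CAL-29 (2.77).

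ERBB2 lies in a gene-dense stretch of 17q12, and some of its neighbours had the same order of lines. PGAP3, which overlaps the annotated span next to it, had 37.7 to 52.1 CPM in RT-112, 12.5 to 34.4 CPM in CAL-29 and 7.48 to 16.8 CPM in HT-1376. It was lower than in RT-112 in both lines (-1.91 and -1.19), as were GRB7 (-0.77 and -1.32), an adaptor that binds ERBB2, and STARD3 (-0.94 and -0.56). MIEN1 (-0.35 and -0.34) was not called in either, though it was under TMM (-0.72 and -1.09), and CDK12 was higher in CAL-29 (1.77). CAL-29 against HT-1376 called CDK12 (1.24), PGAP3 (0.72) and STARD3 (0.39) higher, of which PGAP3 (0.33) and STARD3 (-0.0022) were not called under TMM. Within lines, after the mean of each line was taken off, ERBB2 and PGAP3 had r = 0.894 over the 17 libraries, 5th of 13021 genes. Of the other genes within 200 kb, GSDMB had 0.709, CDK12 0.643, ORMDL3 0.553, GRB7 0.393, MIEN1 0.330 and STARD3 0.0987. ERBB2, PGAP3 and MIEN1 overlap, so that their counts are uncertain to the extent that tags were assigned without strand.

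The question behind the variants was how WWOX and the AP-2 factors act on the same cells. In the comparisons of the variants with KK over the 3 lines, 0% of genes were called for each of the 5 (limma, 0 of 13022 genes). Unadjusted p-values under 0.05 were found for 38 genes with WK, 7 with KA, 11 with KC, 37 with WA and 84 with WC, and with cell line as a block for 506, 63, 550, 209 and 1399, again with 0 called by limma, while without the block limma-voom and edgeR called 0 and DESeq2 called 3, 2, 4, 3 and 9, none of them among the 8. With line as a factor, WWOX over all lines called 0%, AP-2α over all lines 0% and AP-2γ over all lines 0% of 12991 genes (1591, 197 and 341 at an unadjusted p under 0.05; 69, 0 and 0 by limma-voom, 13, 1 and 2 by edgeR, 215, 1 and 12 by DESeq2). None of the 8 genes passed in any of these fits with limma, limma-voom, edgeR or DESeq2.

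ERBB2 and ERBB3 were followed in particular as AP-2 targets. In RT-112 ERBB2 was 1.00 times as high in KA as in KK, 1.26 times in KC, 1.10 times in WA as in WK and 1.15 times in WC as in WK. In HT-1376 the same ratios were 0.909, 1.00, 0.808 and 1.31, and in CAL-29 they were 1.03 for KA, 0.719 for WA and 0.458 for WC. Across lines ERBB2 was higher in 3 of 6 AP-2α pairs and in 4 of 5 AP-2γ pairs. In RT-112 the library with the most TFAP2C, KC with 264 CPM, also had the most ERBB2, 223 CPM. In HT-1376 it was again KC, with TFAP2C at 214 and ERBB2 at 99.9 CPM, close to the 99.7 CPM of KK. In CAL-29 the library with the most TFAP2C, WC with 339 CPM, had the lowest ERBB2 of its line, 77.4 CPM. ERBB3 was higher in 1 of 6 AP-2α pairs (ratios 0.72 to 1.07) and in 2 of 5 AP-2γ pairs (0.472 to 1.10). The fitted effects over all lines were -0.12 ± 0.21 and 0.04 ± 0.22 for ERBB2 and -0.26 ± 0.29 and -0.25 ± 0.31 for ERBB3, for AP-2α and AP-2γ, with limma adjusted p = 1.00 and 0.999. Within lines ERBB2 correlated with TFAP2A at r = 0.285 and with TFAP2C at r = 0.231, and ERBB3 at 0.231 and 0.212, over 17 libraries that share their lines and normalization.

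AREG was the one member that was higher in all 6 AP-2α pairs, with ratios of 1.05 to 13.4, the highest of them resting on the low CAL-29 WK. The fitted AP-2α effect on AREG was 1.14 ± 0.48, with an adjusted p of 1.00 by limma, and 0.56 to 1.56 over 14 alternatives. The AP-2α effects on EREG and HBEGF were 1.07 ± 0.51 and 0.76 ± 0.44, and the AP-2γ effect on AREG was 0.67 ± 0.51, none of them called by limma. Over 14 alternatives they ran from 0.14 to 1.61, from 0.094 to 1.28 and from 0.14 to 1.15. Their highest ratios, 41.25, 6.33 and 7.985, also rested on the low CAL-29 WK. EREG was higher in 3 of the 5 AP-2α pairs with a level above 0 in the control, and HBEGF in 3 of 6. Of those EREG pairs, RT-112 KA against KK had 1 read in each library, so its direction is not measurable.

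**Figure D3:**
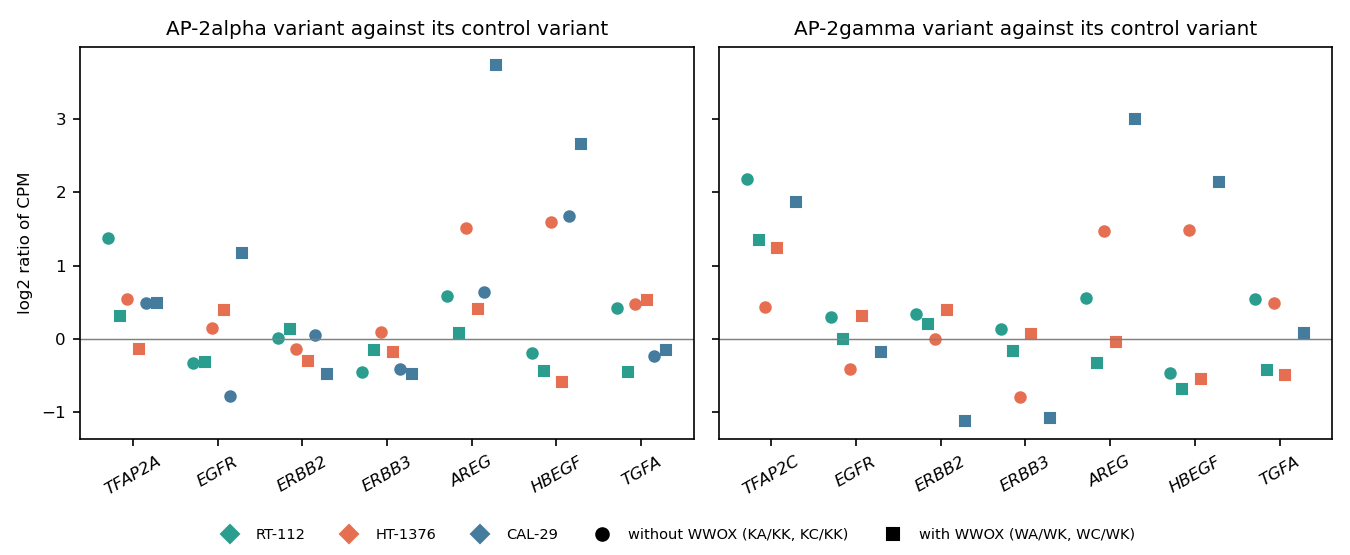
Log2 ratio of CPM (vertical axis) of each AP-2 variant over the variant of the same line and WWOX state without AP-2, for the transduced gene (TFAP2A, left; TFAP2C, right) and 6 of the 8 genes; EREG and BTC are left out because RT-112 had levels near 0. Colours are lines, circles pairs without and squares pairs with WWOX, and the pair of CAL-29 KC is not drawn. TFAP2C lies above 0 in all 5 pairs, ERBB2 and ERBB3 lie on both sides of 0, and AREG lies above 0 in all 6 AP-2α pairs.

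In HT-1376 the ligands HBEGF and TGFA were called higher and the receptor ERBB3 lower in the WWOX variants, which is 2 of 5 ligands and 1 of 3 receptors. HBEGF stood at 13.0, 39.3 and 36.45 CPM in KK, KA and KC and at 125, 83.3 and 85.8 CPM in WK, WA and WC. TGFA stood at 6.18, 8.57 and 8.65 CPM without and at 17.4, 25.2 and 12.3 CPM with WWOX, and ERBB3 at 27.8, 29.7 and 15.95 CPM without and at 12.6, 11.1 and 13.1 CPM with WWOX. For all 3 of these genes, and also for AREG (higher) and EGFR and ERBB2 (lower), the libraries with and without WWOX did not overlap, which makes 6 of the 8 genes against 35.6% of all genes. EREG and BTC overlapped.

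In the fit of a WWOX effect within each line (3 against 3 libraries in HT-1376), 8.58% of genes were called in HT-1376, 4.22% higher and 4.36% lower, and 3 of the 8 genes. WWOX or blank virus came first and AP-2 or blank second, so the WWOX variants of a line may share 1 first-round culture. In that case they were not independent repeats, and WWOX and the history of that culture cannot be told apart in any line. TGFA was higher by 1.14 ± 0.28 (limma adjusted p = 0.0257), HBEGF was higher by 1.84 ± 0.53 (limma adjusted p = 0.0465), and ERBB3 was lower, at -0.92 ± 0.27 (limma adjusted p = 0.0471). AREG (1.20 ± 0.54), EGFR (-0.85 ± 0.32), ERBB2 (-0.61 ± 0.25), EREG (0.19 ± 0.68) and BTC (-0.41 ± 0.47) did not pass, with limma adjusted p from 0.119 to 0.890. All 3 calls were near the threshold: without HT-1376 KK they stood at 0.98, 1.48 and -0.91 with limma adjusted p = 0.126, 0.192 and 0.144. With all 18 libraries they had limma adjusted p = 0.0636, 0.166 and 0.137, and without RT-112 WA HBEGF and ERBB3 had 0.0612 and 0.0694. Along with the ligands, SPRY2 (1.75 ± 0.30) and DUSP6 (1.62 ± 0.40), feedback inhibitors of ERK signalling, the early-response gene IER3 (1.35 ± 0.35) and NRG1 (1.95 ± 0.50) were higher, and PLCG1 (-0.95), a phospholipase that binds activated receptors, was lower. Of these, SPRY2 was still called without HT-1376 KK (limma adjusted p = 0.0264) and with all 18 libraries (0.0194). DUSP6, IER3, NRG1 and PLCG1 were not called in either (limma adjusted p from 0.112 to 0.153 and from 0.0720 to 0.270), and NRG1 ran from 0.88 to 4.73 over 16 alternatives. The genes called were 2 of 17 negative regulators, 1 of 10 ERK targets and 1 of 4 other family members, beside PLCG1 from the list of adaptors. Markers of other cells moved as well: COL1A2 went from 1.49 to 4.37 CPM without to 18.85 to 46.1 CPM with WWOX (3.14) and COL1A1 from 1.32 to 11.1 CPM to 13.2 to 23.3 CPM (1.77), which are 2 of 2 measured, while KRT19 was higher by 2.67 and 4 of 5 epithelial markers were not called. Without HT-1376 KK, COL1A2 was still called (3.15) and COL1A1 was not (limma adjusted p = 0.152). Their part in the result was not tested.

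**Figure D4:**
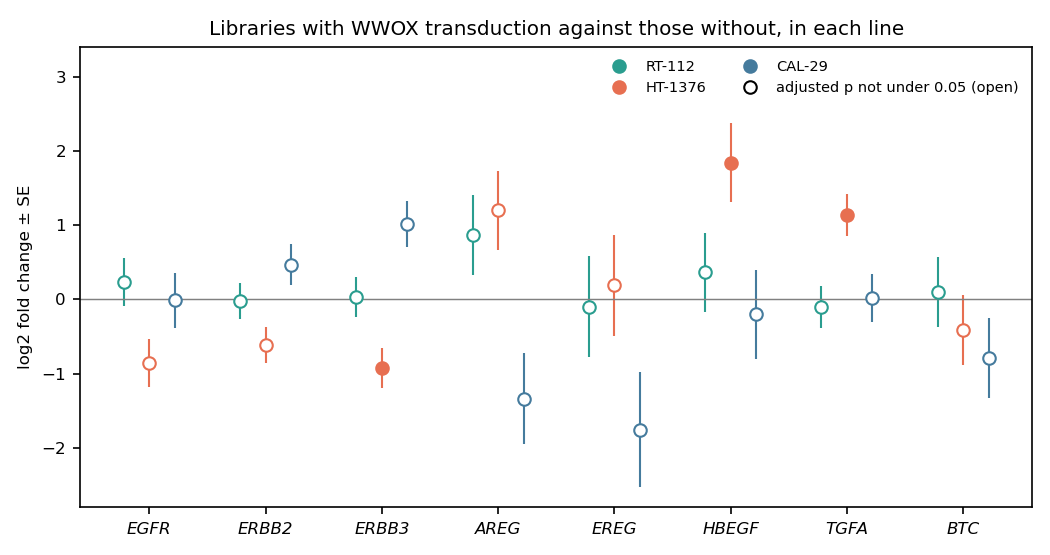
Log2 fold change ± SE (vertical axis) of the libraries with WWOX transduction against those without, fitted within each line for each gene (horizontal axis). Filled points passed an adjusted p of 0.05 (HBEGF, TGFA and ERBB3 in HT-1376). ERBB3 is below 0 in HT-1376 and above 0 in CAL-29.

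In RT-112 0% of genes were called (limma, 0 of 12991; 977 at an unadjusted p under 0.05; 0 by limma-voom and edgeR and 35 by DESeq2). AREG was the one member whose RT-112 libraries with and without WWOX did not overlap, against 21% of all genes, and its effect was 0.86 ± 0.54 (limma adjusted p = 0.811). In CAL-29, with 3 libraries against 2, 0.562% of genes were called, and none of the 8. ERBB3 was at 13.1 and 9.79 CPM in KK and KA and at 31.6, 22.7 and 14.9 CPM in WK, WA and WC. It was the one member of 8 whose CAL-29 groups did not overlap, against 18.8% of all genes, and its effect was 1.02 ± 0.30 (limma adjusted p = 0.157; 0.0307 by DESeq2). AREG and EREG had -1.33 ± 0.61 and -1.76 ± 0.77 there, and ERBB2 0.47 ± 0.28, with limma adjusted p = 0.398, 0.372 and 0.546.

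The test of the difference in WWOX effect between lines called 3.02% of genes and 1 of the 8, ERBB3 (limma adjusted p = 0.0436), which was lower with WWOX in HT-1376, higher in CAL-29 and near 0 in RT-112 (0.03 ± 0.27). Without HT-1376 KK it was 0.117, without RT-112 WA 0.085 and with CAL-29 KC included 0.243. AREG, EREG, HBEGF, TGFA, EGFR, ERBB2 and BTC did not pass it (limma adjusted p from 0.141 to 0.692). Over all lines HBEGF had a WWOX effect of 0.74 ± 0.37 and AREG of 0.37 ± 0.41, with limma adjusted p = 0.419 and 0.716.

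Within lines AREG, EREG and HBEGF went together to differing degrees, and ERBB2 and ERBB3 went together and against them. EGFR, TGFA and BTC followed neither set throughout, though TGFA went with part of the first. Over the 17 libraries, after removal of line means, AREG correlated with HBEGF at r = 0.831 and with EREG at r = 0.809, ERBB2 correlated with ERBB3 at 0.799, and AREG correlated with ERBB2 and ERBB3 at -0.682 and -0.683. CAL-29 WK had AREG at 16.6, EREG at 0.55 and HBEGF at 4.42 CPM, its lowest of the line, and ERBB2 at 169 and ERBB3 at 31.6 CPM, its highest. WWOX was highest there, at 155 CPM. In HT-1376 WA, AREG was highest of its line at 381 CPM and ERBB2 and ERBB3 were lowest at 49.9 and 11.1 CPM, but EREG and HBEGF were highest in other HT-1376 libraries. EREG correlated with HBEGF at 0.605, with ERBB2 at -0.550 and with ERBB3 at -0.489. TGFA correlated with HBEGF at 0.547, with ERBB2 at -0.629 and with ERBB3 at -0.545, but with AREG at 0.386 and with EREG at 0.018. EGFR correlated with ERBB3 at 0.565 and with ERBB2 at 0.400, and BTC moved rather with EGFR (0.680). Of 10 ERK targets, 6 had r above 0.7 with AREG (PHLDA1 0.859, ETV4 0.834, MYC 0.808, FOSL1 0.792, IER3 0.770 and ETV5 0.730), EGR1 and CCND1 were at 0.275 and 0.352, and FOS and IER2 were negative (-0.155 and -0.660). As a measure over all genes, EPGN at r = 0.6275 stood 349th of 13021 for AREG, so fewer genes than that were above 0.7. These correlations come from libraries that share lines and scaling, and CAL-29 WK and HT-1376 KK lie far out in them.

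**Figure D5:**
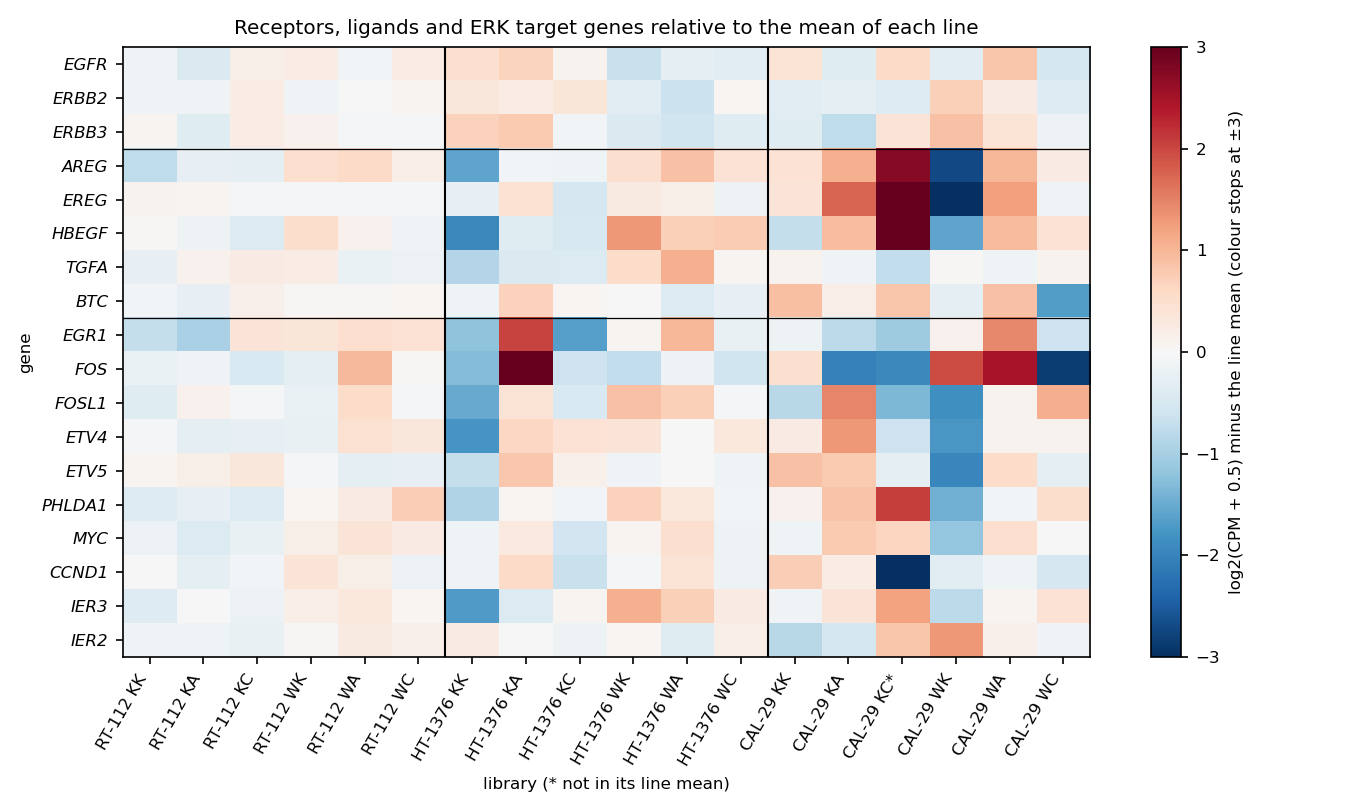
Log2(CPM + 0.5) minus the line mean (colour, stopped at ±3) of the 3 receptors, 5 ligands and 10 ERK target genes (rows) in the 18 libraries (columns); CAL-29 KC, marked with an asterisk, is not in its line mean. AREG, EREG and HBEGF are lowest in CAL-29 WK and AREG and HBEGF in HT-1376 KK, as are PHLDA1, ETV4 and IER3 in both, whereas ERBB2 and ERBB3 are highest of their line in CAL-29 WK.

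Over all genes, the patterns most like each member after removal of line means were those of PKD2 (r = 0.962) and ZNF431 (0.910) for EGFR, HPGD (0.914) and TMPRSS2 (0.913) for ERBB2, and CTDSP2 (0.940) and TSHZ1 (0.925) for ERBB3. For the ligands they were SLC7A5 (0.922) and B4GALNT2 (0.914) for AREG, FIBCD1 (0.922) and SDF2L1 (0.917) for EREG, SOX9 (0.939) and TM4SF19 (0.904) for HBEGF, LINC01091 (0.939) and LINC01579 (0.921) for TGFA, and TBC1D22A (0.945) and PCK2 (0.937) for BTC. Each value was taken over 17 libraries and 13022 genes. A neighbour on chromosome 12, DGKA, stood 4th for ERBB3 (0.918), and EREG stood 34th for AREG.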

How the data were processed

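CAGE libraries were made by the authors from total RNA. Reads were mapped by the authors to hg38 with BWA, those left unmapped with HISAT2 2.0.5 (submitters' processing notes), and tags were clustered with RECLU; how clusters were assigned to genes and the total behind the CPM were not given in the sources used here. The authors deposited CPM (reads scaled to the library total) for 16575 genes in 18 libraries, of which 16553 were matched to a symbol. Values of 99.97% to 99.99% per library were whole multiples of 1 read, and the reads so recovered were used in alternatives only. Members and gene lists were chosen with earlier results of these data known. Genes that reached 5 CPM in 1 or more libraries were kept, log2(CPM + 0.5) was fitted with limma 3.58.1 (trend; R 4.3.3), and p-values were adjusted by Benjamini-Hochberg over all genes kept, with 0.05 as threshold. All 8 members passed the filter. Comparisons with KK used 18 libraries without a block; fits of line, WWOX and AP-2 used 17, without CAL-29 KC. Alternatives included TMM scaling, limma-voom, edgeR 4.0.16 and DESeq2 1.42.0 on recovered reads, other pseudocounts, no filter, a block for cell line and leaving out lines, variants or libraries. The fits were tested on simulated counts. Same-numbered libraries come from the same cell line: their deviations from variant means correlated at 0.742 to 0.915 (RT-112), 0.588 to 0.896 (HT-1376) and 0.036 to 0.881 (CAL-29). Named genes of other lists were at most 3 per direction and list, those called with the largest change; between lines also all measured other family, shedding and 17q12 genes. Limits of 3 reads cover counting error only. One gene of the adaptor list is not reported here.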

Additional observations from a re-analysis of the deposited data

Results flagged for a closer look

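AREG in CAL-29 WK, at 16.6 CPM, lay apart from the other 4 CAL-29 libraries: its gap to the nearest of them was 0.785 of the range on the log2 scale, above the critical value of 0.71 for 5 samples. It was the 1 of 24 gene and line groups so marked, and chance marks about 1 in 20. The WWOX effect on ERBB3 differed between lines by a direct test (limma adjusted p = 0.04357). That difference was called in 7 of 15 alternatives, and not with all 18 libraries (limma adjusted p = 0.243). The library labelled CAL-29 KC, which entered no comparison of lines, had higher levels than all 3 KK libraries for EGFR (236.85 CPM), AREG (743.35 CPM), EREG (186.90 CPM) and HBEGF (134.26 CPM). For AREG, EREG and HBEGF these were the highest levels of all 18 libraries.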

How the results depend on the processing

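Of 2314 values recomputed under alternatives for 162 single-gene results, 2071 kept their direction and side of the threshold, 186 lost the call, 31 gained one and 26 changed sign; the cause was not tested. With cell line as a replicate block, the pairing changed no call: each comparison with KK gave 0 calls, also without CAL-29 KC. DESeq2 called 3, 2, 4, 3 and 9 genes for WK, KA, KC, WA and WC. Calls of WWOX over all lines were 2 with a pseudocount of 0.05, 69 by limma-voom, 13 by edgeR, 215 by DESeq2, 1 without CAL-29 WK, and 0 to 3 when a line was left out. AP-2α gave 1 by edgeR, 1 by DESeq2 and 0 to 1 without a line, and AP-2γ 2, 12 and 0 to 1. WWOX in RT-112 gave 3 and 1 with pseudocounts of 0.05 and 2, 2 without filter, 2 with TMM and 35 by DESeq2. WWOX in HT-1376 gave 1885 by DESeq2, 241 with 18 libraries, 374 without HT-1376 KK and 141 to 1092 when a variant was left out (141 without WK). In CAL-29 it gave 39 with a pseudocount of 0.05, 146 without filter, 24 by edgeR, 296 by DESeq2 and 9 (without WK) to 479 (without WA). The difference between lines gave 661 without filter, 231 by limma-voom, 0 with 18 libraries (limma), 142 without RT-112 WA, 148 without HT-1376 KK and 13 (without KA) to 387.

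Signs changed for HBEGF in CAL-29 against RT-112 (-0.10 with TMM, -0.056 by limma-voom, -0.019 by DESeq2) and RHBDF1 there (-0.27, -0.28, -0.27 by edgeR, -0.36). Against HT-1376, ERBB3 was -0.38 with TMM, -0.39 by limma-voom and by edgeR, -0.44 by DESeq2 and -0.31 to 0.36 without a variant, TGFA was -0.00092 by DESeq2, and STARD3 was -0.0022 with TMM, -0.00026 by limma-voom and -0.052 by DESeq2. The WWOX effect on EREG in HT-1376 was -0.071 to 0.51 without a variant, and that on AREG over all lines -0.083 to 1.03 without a line. ERBB2 under AP-2α was 0.062 without CAL-29 WK, and under AP-2γ -0.043 with 18 libraries and -0.12 to 0.23 without a line. With 1 library per variant and line, no variant had a replicate within its line. EREG and BTC had at most 3 reads in any RT-112 library, so depth limits their values there.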
